A study of Homo sapiens with 47 samples.

Results

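*ESRG*, *ERVK-28* and *LINC00152* are 3 noncoding genes, out of 57507 genes in the expression table, that were lower in 5 of the 6 HAP1 clones carrying mutated *NUP58*. They were selected on that contrast, so their levels in the HAP1 clones against wild-type cells are given as a description with no test. Each symbol stood on a single row of the table. HAP1 is a near-haploid human line that came from the chronic myeloid leukemia line KBM-7 after pluripotency factors had been introduced into it. *NUP58* encodes a nucleoporin of the central channel of the nuclear pore. The HAP1 libraries covered wild-type cells (WT), a control line that received Cas9 and the empty vector without guides (EV), and the clones C1–C6, in which Cas9 cut *NUP58*, with 4 replicates each and 32 libraries in all. HCT116, a human colorectal carcinoma line, gave 15 libraries: 4 of one *NUP58* clone and 11 of unedited cells, labelled WT, EV1 or EV2. Each clone grew from 1 edited cell, so the allele of a clone and any other property of that line cannot be told apart. The labels name no drug treatment, and the study calls the replicates of both cell lines biological in places, those of HAP1 also experimental and those of HCT116 also technical.

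Human endogenous retroviruses are remnants of old germline infections whose long terminal repeats can still act as promoters. They are kept silent in most cells by KRAB zinc finger proteins, the corepressor TRIM28, the methyltransferase SETDB1 and DNA methylation. *ESRG* is a long noncoding RNA derived from a HERV-H element and is known for its high expression in human pluripotent stem cells. *ERVK-28* is a copy of the HERV-K family, and *LINC00152* (now *CYTOR*) is a long noncoding RNA studied for its high levels in carcinomas.

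The values were FPKM, that is, fragments scaled to transcript length and to library size, from bulk RNA, and all levels are given in this unit unless the log2(FPKM + 1) scale is named. In bulk RNA, fewer cells with a transcript and less of it per cell cannot be told apart. Relative to WT replicate 1, libraries had a depth of 0.748 to 1.16 in HAP1, and HCT116 libraries one of 0.761 to 0.99. *NUP58* served as a check of the labels: the 24 libraries of the HAP1 clones (7.98 to 28.0) lay below the 4 WT libraries (34.3 to 50.4). In HCT116, clone replicate 3, as labelled, had 44.7 and was like the other controls, while EV2 replicate 3, as labelled, had 23.9 and was like the other clone libraries (23.3 to 25.3). Results for the HCT116 clone are therefore given with and without these 2 libraries. The title and the genotype label of 2 other HCT116 controls conflict, but both labels call them unedited. The epithelial markers *EPCAM*, *CDH1*, *KRT8*, *KRT18*, *KRT19* and *CLDN4* summed to 1439 to 2716 FPKM in HCT116 and to 18.5 to 63.8 in HAP1. Of 6 blood cell markers in HAP1, only *TAL1* reached a mean of 1 FPKM, and *PTPRC*, *SPI1*, *GATA1* and *HBG1* were listed at 0 in all 32 libraries.

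The 3 genes lie on different chromosomes (GRCh38, GENCODE release 44). *ESRG* (ENSG00000265992.1) covers 54632122 to 54639857 of chromosome 3 on the minus strand and has 1 annotated transcript of 4 exons and 3140 bases. It sits inside an intron of the calcium channel gene *CACNA2D3*, which runs on the opposite strand, and shares 0 exonic bases with it. Since strand was not stated for the counting, intronic reads of *CACNA2D3* over *ESRG* exons cannot be told apart from *ESRG*. *ERVK-28* (ENSG00000267696.6) covers 27638483 to 27646483 of chromosome 19 on the minus strand, with 3 transcripts of 308 to 457 bases. *LINC00152* (ENSG00000222041.10) covers 87454781 to 87636740 of chromosome 2 on the plus strand, with 39 transcripts. Its partial copy *MIR4435-2HG* (ENSG00000172965.14) lies on the minus strand of the same chromosome from 111006015 to 111523376.

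The copy bears on every value of *LINC00152*. Of its 19771 distinct 100-base words, 36.8% also occur in *MIR4435-2HG* transcripts, so the division of reads between both genes is uncertain. *ERVK-28* shares 14.1% and *ESRG* 1.38% of their words with transcripts of other genes. RefSeq (GRCh38.p14) holds the promoter window, from 250 bases before the start to 50 bases after it, for *CYTOR* and for *MIR4435-2HG*. The first is chr2:87455177-87455476 on the plus strand and the second chr2:111495112-111495411 on the minus strand. Both are shown because they make the likeness of the copies visible. In the *CYTOR* window, capitals mark the AP-1 motif TGAGTCA, which was searched on both strands. In the *MIR4435-2HG* window, capitals mark the run of 241 bases that is identical to the first 241 bases of the *CYTOR* window.

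CYTOR: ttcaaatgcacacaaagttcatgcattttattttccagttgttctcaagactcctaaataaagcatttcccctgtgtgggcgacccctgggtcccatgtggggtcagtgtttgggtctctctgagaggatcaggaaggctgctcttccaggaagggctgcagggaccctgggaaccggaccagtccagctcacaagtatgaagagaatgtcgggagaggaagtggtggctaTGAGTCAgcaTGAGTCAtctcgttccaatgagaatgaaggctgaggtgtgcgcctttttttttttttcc

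MIR4435-2HG: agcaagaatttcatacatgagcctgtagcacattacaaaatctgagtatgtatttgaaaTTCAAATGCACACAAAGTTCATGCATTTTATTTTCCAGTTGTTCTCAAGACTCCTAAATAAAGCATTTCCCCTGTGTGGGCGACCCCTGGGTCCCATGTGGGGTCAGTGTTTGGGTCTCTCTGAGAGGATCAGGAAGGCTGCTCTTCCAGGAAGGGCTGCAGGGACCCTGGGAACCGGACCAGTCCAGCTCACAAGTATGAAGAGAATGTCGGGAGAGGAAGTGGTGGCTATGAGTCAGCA

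The *CYTOR* window holds the AP-1 motif at 2 places, 19 and 9 bases before the start, without overlap. The *MIR4435-2HG* window holds it once, at base 41 from its start on. Of 34943 promoter windows of this length, 4.96% hold this motif and 0.223% hold it at least 2 times. Neither window holds TATAAA (11.6% of the windows), GGGCGG (44.9%), CACGTG (7.23%) or ATTTGCAT (1.77%). CCAAT (34.6%) occurs once in the *CYTOR* window and not in the other. The identical run reaches the end of the *MIR4435-2HG* window at base 300. The second AP-1 motif and the CCAAT of *CYTOR* lie past this run, so the windows cannot show whether *MIR4435-2HG* has them too. A match of letters is a description and not a binding site. *ESRG* and *ERVK-28* were not matched.

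The selection rested on the calls of each clone against WT, at an unadjusted p under 0.01 from limma and a fold change over 2 on the log2(FPKM + 1) scale. *ESRG* and *ERVK-28* were called lower in C1, C2, C4, C5 and C6, and *LINC00152* in C1, C2, C3, C4 and C6. All 3 passed the filter on low values (a mean of at least 1 FPKM) in each of these comparisons. Of all tested genes, the share called lower was 0.418% for C1, 0.694% for C2 and 0.159% for C3. For the other clones it was 0.29% (C4), 1.22% (C5) and 1.51% (C6), and nothing is read from these shares because the genes were chosen by these calls. In EV, 0.076% were called lower and the called genes included none of the 3. The called difference smallest in size was that of *LINC00152* in C4, at -1.52 on the log2 scale. Not called were *LINC00152* in C5, at -1.09, which passed the fold but not the p, and *ESRG* and *ERVK-28* in C3, at -0.54 and -0.44.

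*ESRG* was near or at 0 in 5 clones and close to the WT range in C3. Its level was 3.59, 4.28, 14.6 and 8.60 FPKM in WT replicates 1 to 4, and 9.43, 8.07, 20.2 and 18.9 in EV. In C3 it was 3.94, 2.90, 5.12 and 5.95. The WT libraries thus differed among themselves by more than the means of C3 and WT did, and 3 of the 4 C3 libraries lay inside the WT range. All 4 C3 libraries lay below every EV library, and C3 was below WT at 3 of the 4 replicate numbers. In the remaining clones every library lay below every WT library. C4 had 0.295, 0.366, 0.677 and 0.914 FPKM, C2 had 0.194, 0.480, 0.282 and 0.0503, and C1 had 0.110, 0.405, 0.0920 and 0.0249. C5 had 0.137, 0.0248, 0 and 0.0524, and all 4 libraries of C6 were listed at 0. As a share of the WT mean of 7.76 ± 5.06 FPKM (SD, n = 4), C3 kept 57.7%, C4 7.26%, C2 3.24%, C1 2.04% and C5 0.69%, while EV stood at 182%.

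The low values of *ESRG* were near whole multiples of 0.0189 to 0.0291 FPKM, the value of 1 fragment in these libraries. Of the 18 values above 0 and under 20 fragments, 15 came within 0.15 of a whole number. On this scale the WT libraries held about 165 to 565 fragments and EV 289 to 826. C4 held about 13.2 to 34 fragments, C2 up to 16.8, C1 up to 13.9 and C5 up to 5.02. None was counted in C6, which allows up to 3 fragments in a library, or at most 0.0857 FPKM. The order within C1, C2 and C5 therefore turned on few fragments, and their ranges overlapped. Going down the order EV, WT, C3, C4, C2, C1, C5 and C6, the step from C3 to C4 was the one without overlap between neighbours.

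Libraries with the same replicate number moved together for *ESRG* in part of the lines. In WT, EV, C3 and C4 both libraries numbered 3 and 4 were above both numbered 1 and 2, and in C1 they were below. EV exceeded WT at each of the 4 numbers, with a log2 difference of 0.87, but their ranges overlapped. *TAL1*, a blood transcription factor, did separate EV (1.12 to 1.63 FPKM) from WT (14.1 to 21.1), and the clones had 12.1 to 23.9. The part of *TAL1* in the *ESRG* levels was not tested. *CACNA2D3*, the host of *ESRG*, ran from 0.472 to 2.04 FPKM in WT and from 0.578 to 1.54 in EV. In the clones it ran from 0.0863 to 2.73. Its median was 1.94 in WT, 1.12 in EV and 0.478 in the clones, and its part in the *ESRG* levels was not tested.

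**Figure D1:**
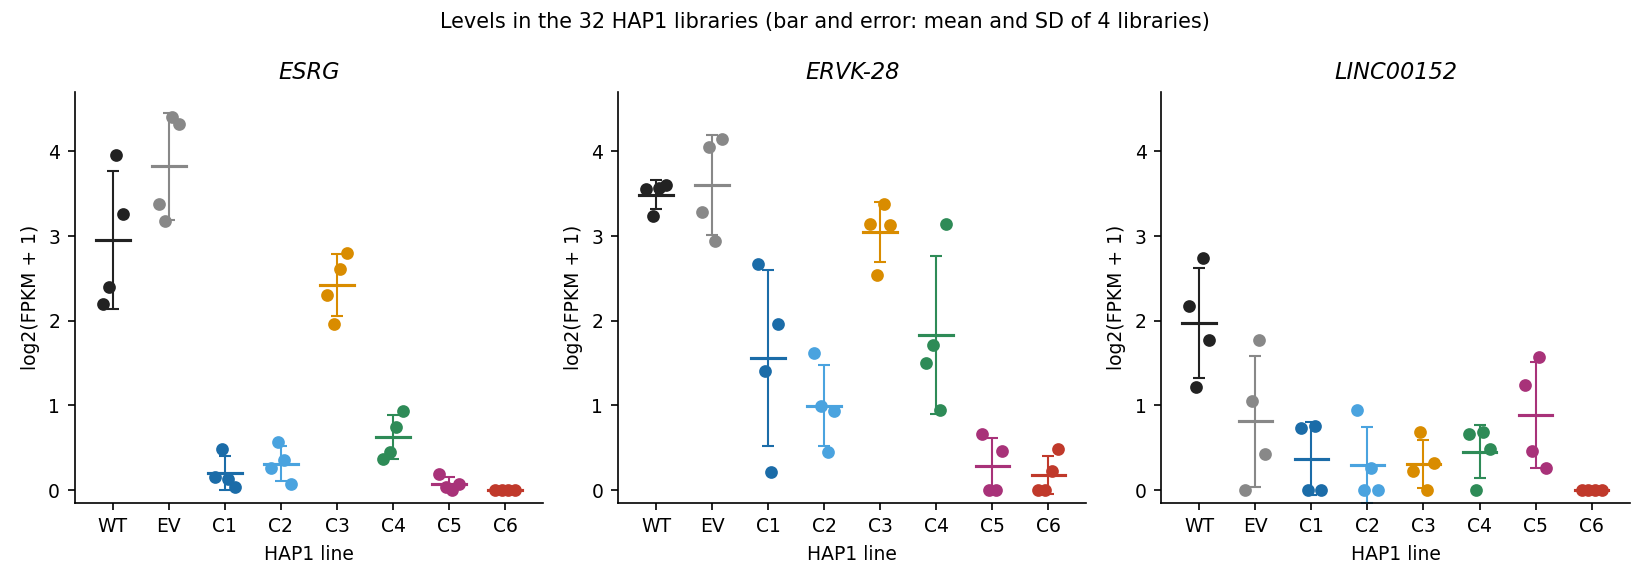
Levels of *ESRG*, *ERVK-28* and *LINC00152* on the log2(FPKM + 1) scale (vertical axis) in the 8 HAP1 lines (horizontal axis), where points are libraries in the order of their replicate number, and bars and errors are the mean and SD of 4 libraries. C3 stands near WT for *ESRG* and *ERVK-28* but not for *LINC00152*, and C6 is at 0 for *ESRG* and *LINC00152*.

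*ERVK-28* showed a similar order of lines with a more gradual decline. It was 10.7, 8.39, 10.9 and 11.1 FPKM in WT and 8.71, 15.5, 6.65 and 16.7 in EV. C3 gave 7.80, 4.82, 9.40 and 7.76 FPKM. These 3 lines overlapped, although 3 of the 4 C3 libraries lay below the lowest WT library. C4 gave 1.83, 2.28, 0.934 and 7.85 FPKM, C1 5.37, 1.66, 0.158 and 2.88, and C2 2.06, 0.984, 0.370 and 0.912. C5 was at 0.583, 0, 0 and 0.375, and C6 at 0, 0, 0.173 and 0.395. Every library of C1, C2, C4, C5 and C6 was below the WT libraries, but C4 replicate 4 stood inside the range of C3.

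The WT mean of *ERVK-28* was 10.3 ± 1.27 FPKM (SD, n = 4). EV stood at 116% of it, C3 at 72.4%, C4 at 31.4%, C1 at 24.5%, C2 at 10.5%, C5 at 2.33% and C6 at 1.38%. In the order EV, WT, C3, C4, C1, C2, C5 and C6, every neighbouring pair of lines overlapped in range. The spread within C1 was 5.37 to 0.158 FPKM, so that the place of C1 between C4 and C2 was not set by its libraries beyond their spread. Against EV, 20 of the 24 clone libraries were below all EV libraries for *ERVK-28*, compared with 24 of 24 for *ESRG*.

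The nearest genes to *ERVK-28* were looked at in the same way. CTB-151G24.2, which overlaps its span on the same strand with 0 shared exonic bases, was listed at 0 in WT and EV and reached at most 0.537 FPKM in the clones. *LINC00662*, a long noncoding RNA gene 34589 bases away and the nearest neighbour past the filter, was at 6.05 to 13.4 FPKM in WT and 4.62 to 24.1 in the clones. The ranges of this neighbour overlapped, and its log2 difference between the mean of the clones and WT was 0.21 (SE 0.285, adjusted p = 0.759 from limma).

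Across the 32 HAP1 libraries *ESRG* and *ERVK-28* had a Pearson correlation of 0.85 on the log2 scale. Over the 8 line means it was 0.94, and within lines, after the line means were taken off, 0.11. These libraries share lines and replicate numbers, so no p is given. *NUP58* was not ordered in the same way: C4 kept the most *NUP58* of the clones (25.5 ± 2.24, SD, n = 4) and had 7.26% of the WT level of *ESRG*, whereas C3 had 12.8 ± 1.95 FPKM of *NUP58* and 57.7% of the *ESRG* level.

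**Figure D2:**
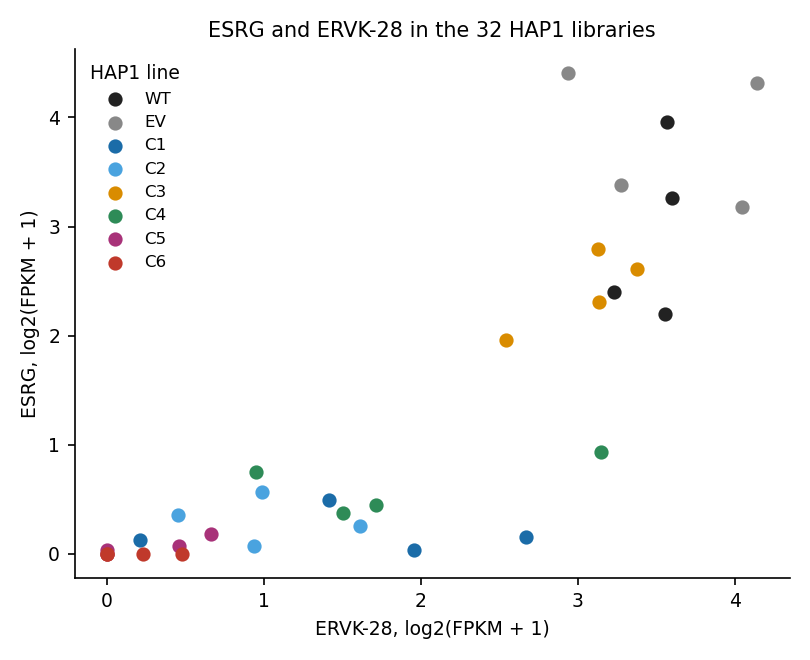
*ESRG* (vertical axis) against *ERVK-28* (horizontal axis), both as log2(FPKM + 1), in 32 HAP1 libraries coloured by line. WT, EV and C3 lie at the upper right and C5 and C6 at the lower left, and libraries within a line show little common direction (within-line correlation 0.11).

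*LINC00152* was low in HAP1 and differed from the retroviral genes in that the EV control was low too. WT had 3.51, 1.32, 5.69 and 2.41 FPKM. EV had 0, 1.07, 2.43 and 0.340, and thus 3 of its 4 libraries below all WT libraries. C5 had 1.36, 0.378, 1.98 and 0.201 FPKM, which overlapped with both controls. C4 had 0.577, 0, 0.605 and 0.396, C1 0.665, 0, 0.690 and 0, C2 0.930, 0, 0.197 and 0, and C3 0.165, 0.614, 0 and 0.252. All 4 libraries of C6 were listed at 0. In all, 22 of 24 clone libraries were below every WT library, but none was below every EV library, since EV replicate 1 was listed at 0. EV differed from WT by -1.16 on the log2 scale and passed the fold but not the p of the call. The mean of the 6 clones was -1.59 from WT and -0.42 from EV on the log2 scale, and over all 32 libraries the gene (mean 0.805 FPKM) stayed under the filter. WT was highest, and in the order WT, C5, EV, C4, C1, C3, C2 and C6 each line overlapped its neighbour.

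*MIR4435-2HG* did not follow *LINC00152* in every line. It was 2.06, 0.525, 0.954 and 0.984 FPKM in WT, 1.4, 1.68, 0.503 and 2.13 in C3, and 2.58, 0.596, 2.09 and 0.422 in C5. In these 3 lines its ranges overlapped, while *LINC00152* in C3 was below WT in each library. In C6 *MIR4435-2HG* was 0.15, 0.0599, 0.194 and 0.0447, in C2 it was 0, 0, 0.0549 and 0.406, and in EV 0.0598, 0.489, 0.522 and 0. The sum of both genes, which does not depend on how reads were divided between them apart from length, was 1.84 to 6.64 FPKM in WT, 0.503 to 2.39 in C3, 0.0598 to 2.95 in EV and 0.0447 to 0.194 in C6. It reached 2.04 in C1, 1.86 in C4 and 4.07 in C5, and at most 0.93 in C2. The range of the sum thus overlapped with WT in EV, C1, C3, C4 and C5, although *LINC00152* alone was below WT in every library of C1, C3 and C4.

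In HCT116 the retroviral genes were at or near 0 and *LINC00152* was high. *ESRG* was listed at 0 in 10 of the 15 HCT116 libraries and reached at most 0.0564 FPKM, about 6.02 fragments over all 15. *ERVK-28* was above 0 in 2 libraries, both of EV2, at 0.200 and 0.197. *LINC00152* ran from 18.3 to 39.3 FPKM, with a median of 23.6, in the 11 controls. Every HCT116 library was thus above every HAP1 library for *LINC00152*. For the other 2 genes, every EV library of HAP1 was above every HCT116 library. The share of all genes with such a separation is not given here. In the limma fit of HAP1 EV against unedited HCT116 cells, 59.9% of 13425 genes passed an adjusted p of 0.05. HAP1 EV, whose libraries had not entered the selection, differed from the mean of the 11 unedited HCT116 libraries by 3.80 on the log2 scale for *ESRG* and by 3.55 for *ERVK-28*. For *LINC00152* the difference was -3.89 and for *MIR4435-2HG* -3.86. Each of these genes had a mean under 1 FPKM in one of both groups (0.0122, 0.036, 0.959 and 0.268 in the same order), so it passed the filter of limma only through the group in which it was high, and no p from limma is given. The exact two-sided permutation test of 4 against 11 libraries, which uses no filter, gave p = 0.00147 for *LINC00152* and for *MIR4435-2HG*. This is the smallest value it can give (0.0044 after Benjamini-Hochberg adjustment over the 12 exact tests made). Every gene whose HAP1 EV and unedited HCT116 libraries do not overlap gets this value, so it marks nothing particular to these genes.

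The HCT116 clone gave an independent look at *LINC00152*. Its 4 libraries had 19.5, 24.1, 33.2 and 13.6 FPKM, against 18.3 to 39.3 in the controls. All but replicate 4 lay inside the range of the controls. The log2 difference was -0.21 (SE 0.21, 95% interval -0.65 to 0.23, adjusted p = 0.753 from limma, exact permutation p = 0.378, 0.567 adjusted over the 12 tests), and 0% of 12960 genes passed an adjusted p of 0.05 in this comparison, with 1342 at an unadjusted p under 0.05. With both libraries that went against their labels left out, a choice made after the data were seen, it was -0.45 (adjusted p = 0.185 from limma, exact permutation p = 0.0769 for 3 against 10 libraries, 0.185 adjusted). Over all genes, leaving out these libraries raised the calls from 0 to 990, or 7.62% of 12985 (581 higher, 409 lower), and *LINC00152* was not among them. With clone replicate 4 alone left out, the difference of *LINC00152* was -0.0017, and this fit kept both libraries that went against their labels. With clone replicate 3 alone left out it was -0.41 (adjusted p = 0.251 from limma). The size of the difference thus turned on single libraries. *MIR4435-2HG* was 16.4, 9.74, 16.2 and 12.3 FPKM in the clone and 8.56 to 27.7 in the controls, a log2 difference of -0.33 (95% interval -0.89 to 0.22, adjusted p = 0.667 from limma). Without the 2 libraries it was -0.51 (adjusted p = 0.236 from limma, exact permutation p = 0.126). *ESRG* and *ERVK-28*, with means over these libraries of 0.0107 and 0.0264 FPKM, did not pass the filter of limma in HCT116. Exact permutation tests gave p = 0.659 and p = 1.0 for them, and p = 0.783 and p = 1.0 without the 2 libraries, at levels near the value of 1 fragment, so that a difference was not detectable at this depth.

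**Figure D3:**
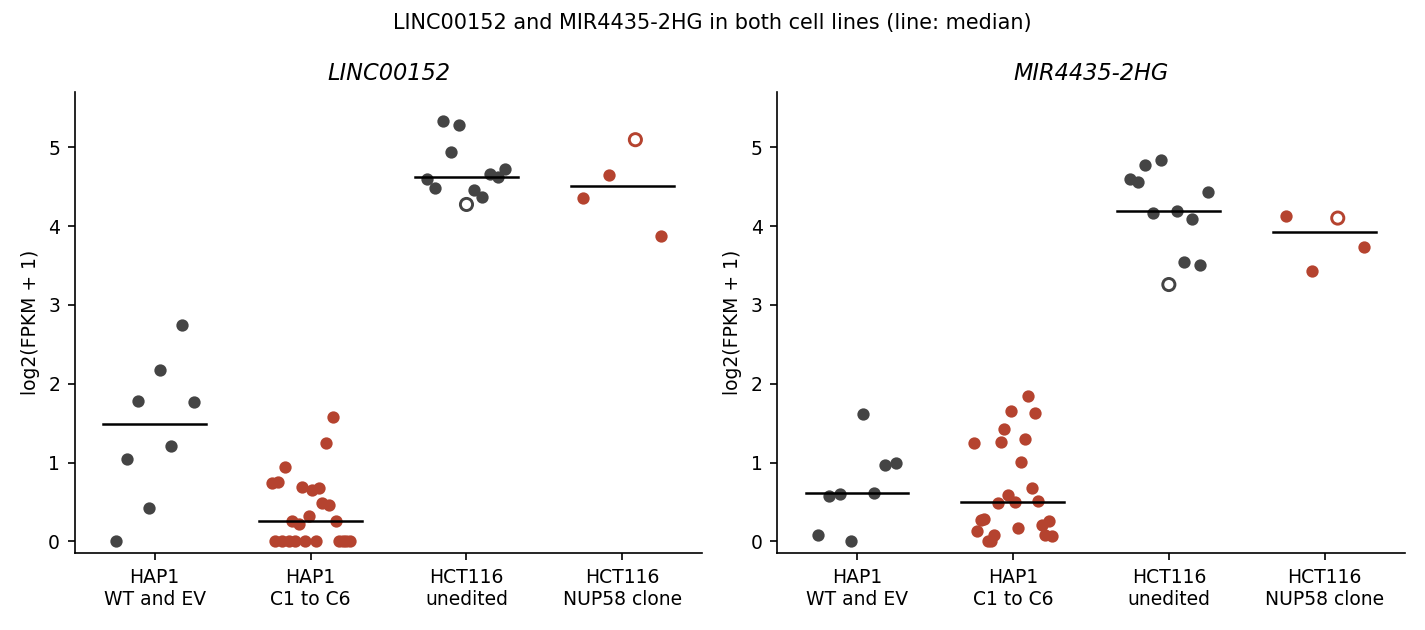
*LINC00152* and *MIR4435-2HG* as log2(FPKM + 1) (vertical axis) in HAP1 WT and EV, the HAP1 clones, unedited HCT116 cells and the HCT116 *NUP58* clone, where points are libraries, lines are medians, and open circles are the library labelled clone replicate 3 and the library labelled EV2 replicate 3. Both genes stand higher in every HCT116 library than in any HAP1 library, and the HCT116 clone overlaps its controls. Between HAP1 EV and unedited HCT116 cells, 59.9% of 13425 tested genes passed an adjusted p of 0.05 from limma.

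None of the tested pluripotency genes passed the test in the mean of the clones. In the fit of the mean of the 6 clones against WT, where 6.6% of 13180 genes passed an adjusted p of 0.05, the transcription factor genes *POU5F1* and *SOX2* and the chromatin-associated *DPPA4* were the most abundant of a list of 16 pluripotency genes. Of these, 8 passed the filter and 0 passed the test, with 2 at an unadjusted p under 0.05. Their median log2 difference was -0.12, against -0.02 over all tested genes. *POU5F1*, which encodes OCT4, was 581 ± 314 FPKM in WT (SD, n = 4) and differed by 0.56 (SE 0.317, adjusted p = 0.331 from limma), and *SOX2* was 397 ± 240 and differed by 0.43 (adjusted p = 0.473). *DPPA4* was 105 ± 13.5 FPKM and differed by 0.21 (adjusted p = 0.244 from limma, 0.0383 with the replicate number as a block, where it alone of the list passed). *NANOG* was listed at 0 in WT and EV and reached at most 0.0731 FPKM in the clones, and *ZFP42* was listed at 0 in all HAP1 libraries. Transcripts of introduced factors and of the cells' own genes cannot be told apart in these values. Against unedited HCT116 cells, 5 of 8 tested genes of the list were higher in HAP1 EV and 1, *KLF4*, was lower, beside 59.9% of all 13425 genes past the test in this comparison (4522 higher, 3524 lower). *POU5F1* was higher by 7.36 and *SOX2* by 7.10 on the log2 scale. Of the tested genes, *DPPA4* and *LIN28B* had means of 0.457 and 0.0821 FPKM in unedited HCT116 cells. These genes passed the filter only through HAP1 EV, so the count is given as a description.

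Few other genes linked to HERV-H or named for retroviral elements could be tested in the mean of the clones, and 0 of them passed, beside 6.6% of all genes. So few tested genes cannot show whether such genes changed as a set. Of 7 genes with known HERV-H-linked transcripts, *LINC00458* and *RPL39L* passed the filter and neither passed the test. *LINC00458*, a noncoding RNA of pluripotent cells, was 0.585 to 3.03 FPKM in WT and 0 to 8.10 in the clones (log2 difference -0.10, adjusted p = 0.898 from limma). Its direction differed between clones, with a log2 difference from WT of 1.36 in C4 (adjusted p = 0.218) and -1.20 in C6 (adjusted p = 0.0406), the latter past the test. *RPL39L*, a ribosomal protein paralog, was 32.5 to 71.6 FPKM in WT and 31.3 to 65.1 in the clones. Among 11 other genes with ERV names, *ERVK3-1* (19.4 to 47.6 FPKM in WT, 18.0 to 40.1 in the clones) and *ERV3-1* (2.68 to 4.34 and 1.03 to 7.40) were tested and neither passed. The remaining 9 were under the filter.

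Of 26 measured genes that silence retroviral elements, 25 were tested in the mean of the clones, where 1 was lower and 0 were higher (6.6% of all genes passed), with a median log2 difference of -0.04. The one that fell was *CBX5*, which encodes the heterochromatin protein HP1 alpha, at -0.32 (adjusted p = 0.0364 from limma). This call was lost with EV as control (adjusted p = 0.0813) and without any one of the 4 replicate numbers. The corepressor gene *TRIM28* (mean 296 FPKM) differed by -0.06 and *CBX3*, another heterochromatin protein gene (243 FPKM), by -0.04, and neither passed the test. In single clones, 0 of the 25 genes passed in C1, C2, C3 and C4, where 0.479%, 0.732%, 0.0911% and 0.16% of all genes passed an adjusted p of 0.05. In C5 1 was lower (7.55% of all genes passed), *SUV39H1*, a histone methyltransferase gene, at -0.49. In C6 4 were lower and 1 was higher (11.7% of all genes passed). These were *DAXX*, a histone chaperone gene, at -1.15, the histone methyltransferase gene *EHMT2* at -0.70, *MPHOSPH8* at -0.57, *CBX5* at -0.39 and *FAM208A*, which encodes a partner of the *MPHOSPH8* product in the HUSH silencing complex, at 0.61.

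Of 31 other long noncoding RNA genes in the table, 28 were tested in the mean of the clones and 0 passed, beside 6.6% of all genes. An unadjusted p under 0.05 from limma was reached by 4 of the 28. The most abundant of those tested were *GAS5* (375 FPKM, -0.08), *SNHG1* (371 FPKM, -0.11) and *SNHG8* (223 FPKM, -0.13). With the replicate number as a block 2 passed, *SNHG12* (-0.48) and *CRNDE* (0.54). In single clones 0 of 27 or 28 passed in C1 to C4, where 0.479%, 0.732%, 0.0911% and 0.16% of all genes passed. In C5 1 of 27, *TUG1*, was lower (-0.58), beside 7.55% of all genes past the test. In C6 4 of 27 were lower, the small nucleolar RNA hosts *SNHG1* (-0.54), *SNHG6* (-0.48), *SNHG7* (-0.64) and *SNHG12* (-0.81). *HOTTIP* was higher there (1.72), and 11.7% of all genes passed in C6. Of 47 genes within 500 kb of the 3 genes, 7 were tested in the mean of the clones. Of these, 0 passed, beside 6.6% of all genes, with a median difference of 0.03. In the HCT116 clone 0 genes of these lists passed the test with all libraries. Without the 2 libraries that went against their labels, 1 of 6 pluripotency genes (*DNMT3B*), 1 of 3 genes with ERV names (*ERVMER34-1*), 1 of 25 silencing genes (again *DNMT3B*, a DNA methyltransferase gene on both lists), 3 of 27 long noncoding RNA genes (*DANCR*, *SNHG7* and *SNHG16*), 0 of 7 neighbours and 1 of 6 epithelial markers (*EPCAM*) were lower, beside 7.62% of all genes past the test in either direction. Against unedited HCT116 cells, HAP1 EV was higher for 12 and lower for 2 of 25 silencing genes, and higher for 12 and lower for 3 of 28 long noncoding RNA genes, beside the 59.9% of all genes past the test there. Among genes with ERV names it was higher for *ERVK3-1* (0.91). *ERVMER34-1* had a mean of 0.0518 FPKM in HAP1 EV and 17.4 in unedited HCT116 cells (-4.09). The HERV-H-linked *RPL39L* had 47.9 and 0.172 FPKM (5.37). Both passed the filter only through the group in which they were high, so their differences are given as a description.

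Both tested keratin genes of the epithelial list were lower in the mean of the clones, where 6.6% of all genes passed. *KRT8* was 10.0 ± 2.81 FPKM in WT and 4.03 ± 3.10 in the clones (SD, n = 4 libraries and 24 libraries of 6 lines), a log2 difference of -1.29 (adjusted p = 7.93e-06 from limma). *KRT18* was 37.5 ± 6.70 and 23.4 ± 4.72, a difference of -0.67 (adjusted p = 3.63e-05). Both encode keratins that pair in simple epithelia, and *EPCAM*, the third tested gene of the list, differed by 0.10 (adjusted p = 0.753) but by 2.97 in C5 alone (adjusted p = 4.65e-05). C3, where *ESRG* overlapped with WT, differed from WT by 0.01 for *KRT8* and -0.32 for *KRT18*, and neither passed the test (adjusted p = 1.0 for both). In C1 and C4, 0 of 2 tested markers passed either, though 2 had an unadjusted p under 0.05 from limma. Of all genes, 0.479% passed in C1 and 0.16% in C4. Both keratin genes were lower past the test in C2 and C6 (0.732% and 11.7% of all genes passed). In C5, 1 of the 3 tested markers was also lower past the test (7.55% of all genes passed). All 3 had an unadjusted p under 0.05 from limma there. The summed level of the 6 markers was 45.4 to 55.7 FPKM in WT, 48.7 to 63.8 in EV and 18.5 to 48.3 in the clones, and its part in the levels of *ESRG* was not tested.

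**Figure D4:**
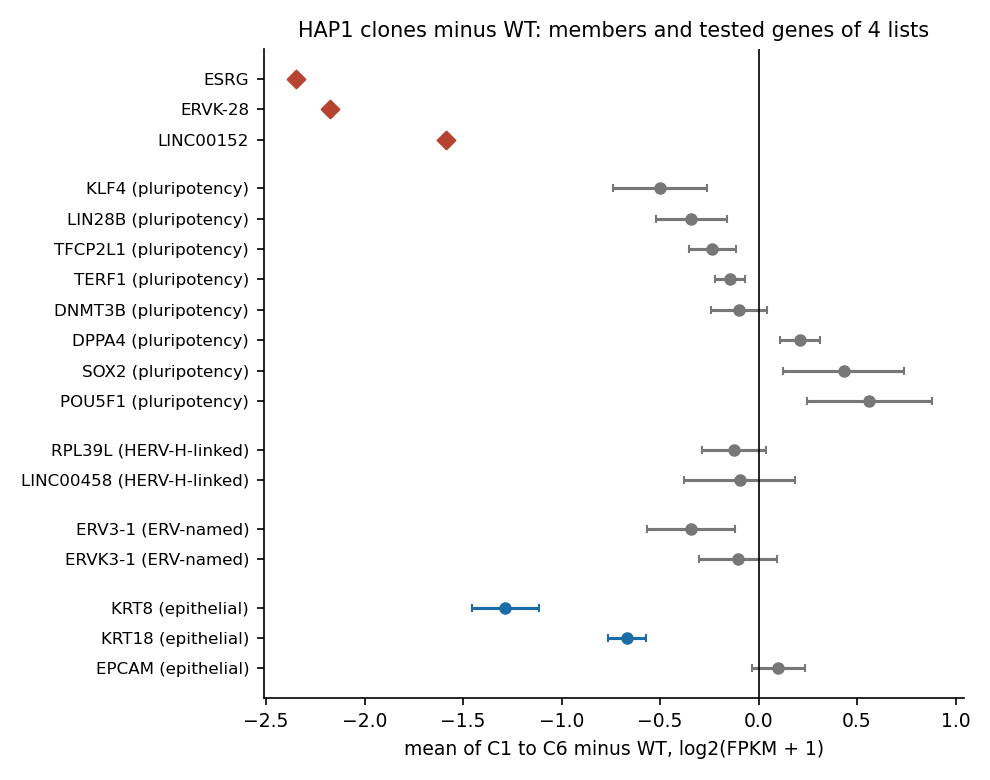
Difference of the mean of the 6 clones from WT on the log2(FPKM + 1) scale (horizontal axis) for the 3 noncoding genes (diamonds, chosen on this contrast and shown without error) and for the tested genes of 4 lists (circles with SE). Blue circles passed an adjusted p of 0.05 (*KRT8* and *KRT18*), and the other circles did not.

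The genes whose levels were most like each of the 3 were taken by Pearson correlation over the 32 HAP1 libraries, as a description. For *ESRG* these were *KRT18* (0.90), *KANK2*, a regulator of cortical adhesion (0.89), the inositol phosphatase gene *INPP5J* (0.87), *BCL2L1*, which encodes the survival protein BCL-XL (0.86), and *ERVK-28* (0.85). *SYT1*, the calcium sensor of vesicle release (-0.88), *ZNF608* (-0.86) and the growth factor receptor gene *PDGFRA* (-0.86) ran in the opposite direction. *SYT1* had a mean of 2.11 FPKM in WT and 1.62 in EV, and between 32.1 in C3 and 66.7 in C5 in the clones. In C3, *SYT1* was thus far above WT although *ESRG* overlapped with WT there.

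*ERVK-28* was most like *TPM1*, which encodes a tropomyosin of actin filaments (0.90), the myosin light chain gene *MYL12B* (0.89), *STRA6*, the retinol uptake receptor (0.89), *RAB15* (0.88) and *SOCS2-AS1* (0.88). Least like it were the cyclin gene *CCND1* (-0.88), *CCDC181* (-0.88) and the integrin gene *ITGB8* (-0.86). *STRA6* followed the order of lines closely, with means of 6.62 FPKM in WT, 4.22 in C3, 2.88 in C4, 2.15 in C1, 0.562 in C2, 1.26 in C5 and 0.213 in C6. *CCND1* had means of 2.36 FPKM in WT, 5.33 in C3, 19 in C5 and 22.6 in C6.

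For *LINC00152* the correlations were weaker. *ANXA1*, a phospholipid-binding annexin (0.68), *TPMT* (0.68), *APTX* (0.67), *PIP4K2C* (0.67) and *CCDC43* (0.66) had the highest values. *SEPTIN2* (-0.70), whose symbol the table holds as a date and which was matched by its identifier, *DACH2* (-0.70) and *BMP7* (-0.66) had the lowest. *ANXA1* shared with *LINC00152* a lower mean in EV (4.16 FPKM) than in WT (10.8), and its means in the clones lay between 1.06 in C1 and 2.96 in C3.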

How the data were processed

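Total RNA of 47 libraries (32 of HAP1, 15 of HCT116) was sequenced by the authors, who checked reads with FastQC, trimmed adaptors, used STAR to align reads to GRCh38.p13 and RSEM to quantify genes (versions not given in the sources used here). The deposited values are FPKM per gene for 57507 genes, to which the authors applied no further normalization. Read counts were not used here, and relative depth was read from the value of 1 fragment in low genes. The labels name no separate cultures, and the study calls the HCT116 replicates biological in one place and technical in another, so p-values measure only the spread between these libraries, which may be technical.

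Values were analysed as log2(FPKM + 1), which understates changes of low genes. In each comparison, genes whose mean FPKM was at least 1 entered limma 3.58.1 under R 4.3.3 (eBayes with a trend, Benjamini-Hochberg adjustment over all tested genes). The fits were the HCT116 clone against 11 controls, HAP1 EV against those controls, each HAP1 line against WT, and the mean of 6 clones against WT over 32 libraries. Fits were tested on simulated data, and permutation tests enumerated all arrangements of libraries.

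Identifiers matched GENCODE release 44 for 98.1% of genes. Of the 3 genes, 1 matched a RefSeq promoter. The 3 genes and all lists were chosen with earlier results of these data known. Named genes were the 3 genes, *NUP58* and the copy *MIR4435-2HG*, genes of the lists past the test (at most 6) or most abundant (at most 3), and the 5 most and 3 least correlated genes. Genes of the lists named beyond that (*NANOG*, *ZFP42*, *KLF4*, *LIN28B*, *EPCAM*, *ERVMER34-1*, genes past the test in a single clone or with 2 HCT116 libraries left out, *CACNA2D3*, CTB-151G24.2, *TAL1* and other markers) were named after their values were seen.

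Same-numbered libraries deviated together (correlation over 0.1) in 24 of 28 pairs of a HAP1 library with the WT library of its number. In HCT116 this held for 2 of 11 pairs. The main HAP1 fits did not model this shared part and can miss differences for that reason. Fits with the replicate number as a block are given as an alternative. Alternatives were a pseudocount of 0.1, no filter, scaling to TPM, no trend, a replicate block, EV as control, other control sets, and leaving out each library, replicate number or clone. Python 3.11.15, numpy 2.4.6, pandas 2.3.3, scipy 1.17.1 and matplotlib 3.10.9 were used for tables and figures.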

Additional observations from a re-analysis of the deposited data

Results flagged for a closer look

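In groups of 4 libraries, 30 combinations of gene and line were looked at for a library far from the others (gap over range above Dixon's critical value), and 3 stood out, where chance flags about 1 in 20. The lowest WT library of *ERVK-28* (replicate 2, 8.39 FPKM against 10.7 to 11.1) had a gap of 0.878 of the range on the log2(FPKM + 1) scale. For *ESRG*, the 1 HCT116 clone library and the 1 EV2 library above 0 (0.0264 and 0.0273 FPKM, near the value of a single fragment) each had a gap of 1.0, since the other 3 libraries were at 0.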

How the results depend on the processing

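*LINC00152* in the HCT116 clone stayed lower and not past the threshold under every alternative run. It ran from -0.41 to -0.0017 when 1 library was left out (-0.0017 without clone replicate 4), and its adjusted p from limma was 0.185 to 1.00 over all alternatives. Leaving out both HCT116 libraries that went against their labels, chosen after seeing the data, raised the calls over all genes from 0 to 990. The description in HAP1 depended on the scale. With a pseudocount of 0.1 the mean of the clones minus WT was -4.16 for *ESRG*, -3.28 for *ERVK-28* and -3.34 for *LINC00152*, against -2.35, -2.17 and -1.59, and with EV as control it was -3.22 for *ESRG* and -0.42 for *LINC00152*. Scaled to TPM, *ERVK-28* was at -2.44, and with 1 replicate number left out at -2.26 to -2.0. *LINC00152* in C5 was 0.0741 above EV, and *ERVK-28* in EV minus WT ran from -0.12 to 0.36 with 1 replicate number left out (0.11 with all). The cause was not tested.

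The 1 call among the silencing genes (*CBX5*) became 0 without the filter, scaled to TPM, with EV as control, without C1, without C6, and in a range of 0 to 0 without each replicate number. Pluripotency calls rose from 0 to 1 without the filter (*TDGF1*, at -0.63, mean 0.215 FPKM) and with a replicate block (*DPPA4*, 0.21). Long noncoding RNA calls rose from 0 to 2 with the block (*SNHG12* at -0.48, *CRNDE* at 0.54) and to 1 without C3 (*MIR22HG*, -0.71). With the replicate block, calls over all genes rose from 870 to 1659, and the log2 difference of *LINC00152* in HCT116 was -0.23. Same-numbered libraries mostly deviated together in HAP1 but not in HCT116, and the main fits did not model the number. The block changed no other call on the lists or the 3 genes. Calls over all genes were 265 without replicate 1, 506 without replicate 3 and 316 without replicate 4. Depth limits *ESRG* below about 0.0291 FPKM, the value of 1 fragment.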
